A study of Mus musculus with 9 samples.

Results

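The 9 genes described here mark lymphatic endothelium (Prox1, Mmrn1, Ccl21a, Lyve1 and Pdpn) or venular endothelium (Vwf, Selp, Ackr1 and Lrg1), and were taken by name from the 52636 genes of the table. All 9 were present in the table. They were measured in thyroid cells of male C57BL/6 mice by droplet-based 3' single-cell RNA sequencing, which counts unique molecular identifiers (UMIs), 1 per captured transcript. Each of 9 samples was a pool of thyroids from 6 mice, taken 7 days after 1 intraperitoneal injection of antibody. The 3 RW samples had received a control antibody against ragweed (40 mg/kg). The 3 aJ1aJ2 samples had received antibodies that block the Notch ligands Jag1 and Jag2 (20 mg/kg each), and the 3 aN1aN2 samples antibodies that block the receptors Notch1 (5 mg/kg) and Notch2 (10 mg/kg). The mice were at least 10 weeks old, with an upper age given as 12 weeks in one label and 14 weeks in another, and no genetic change is named for any group. The antibodies act on the whole animal, so a change in a cell type of the thyroid need not start in that cell type.

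Lymphatic capillaries take up tissue fluid and leukocytes and are specified by the transcription factor Prox1. Postcapillary venules are the vessels through which most leukocytes leave the blood, and their endothelium stores von Willebrand factor and P-selectin in granules that fuse with the surface on activation. Notch signalling passes between neighbouring cells and is known for setting arterial against venous identity in blood endothelium.

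The table held 10186 cells in 16 groups named by the authors, here called labels. Samples held 583 to 1805 cells and 3013324 to 11880793 UMIs. The median UMIs per cell were 3202 to 4149 in the RW samples, 2823 to 3810 in the aJ1aJ2 samples and 2098 to 2237 in the aN1aN2 samples. The 3 aN1aN2 samples also carry identifiers from a number range of their own, so the receptor blockade and that range cannot be told apart. In 15 cases a cell barcode occurred in more than 1 library. Endothelial cells carry 4 labels, EC1 with 1603 cells, EC2 with 409, EC3 with 365 and EC4 with 1046, and all 9 pan-endothelial genes of the list used (Pecam1, Cdh5 and others) were detected in each. Median depth was 3994 UMIs in EC1, 2757 in EC2, 4624 in EC3 and 1045.5 in EC4. One EC3 cell of RW 2 went against its label. It had 120349 UMIs, 813 of the keratin Krt5 and none of Pecam1 or Cdh5, and it supplied 22.9% of the EC3 UMIs of that sample. Results on EC3 are given with it. Leaving it out changed the call of no member, with log2 changes in aN1aN2 against RW of 1.88 for Lrg1, 1.21 for Vwf, 2.05 for Selp and -1.57 for Ccl21a, all still called.

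The 5 lymphatic genes stand for a transcription factor (Prox1), a secreted glycoprotein (Mmrn1, multimerin), a chemokine that draws dendritic cells and T cells (Ccl21a), a hyaluronan receptor (Lyve1) and the membrane glycoprotein podoplanin (Pdpn). On GRCm38 they lie at chr1:190118035-190170714 (Prox1), chr6:60924976-60989378 (Mmrn1), chr4:42772860-42773993 (Ccl21a), chr7:110850607-110863239 (Lyve1) and chr4:143267431-143299564 (Pdpn). The 4 venule genes stand for von Willebrand factor (Vwf, chr6:125546774-125686679), P-selectin, on which leukocytes roll (Selp, chr1:164115264-164150026), a scavenging chemokine receptor (Ackr1, chr1:173331886-173333750) and a secreted leucine-rich glycoprotein (Lrg1, chr17:56119678-56122001). Prox1 is overlapped on the opposite strand by Prox1os and Gm28172, with 11 and 4 UMIs in EC3.

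Ccl21a has near-identical copies in the mouse genome, so the sequences decide how far its counts can be assigned. Over 399 coding bases, Gm21541, Gm13304 and Ccl21b differ from Ccl21a at the same positions, T84A and C194T, counted from the first base of the start codon. The stretches around both positions, from the GENCODE M21 transcripts, are shown for Ccl21a and Gm21541 with the differing base in capitals.
Ccl21a, coding bases 70 to 99: agtgatggagggggTcaggactgctgcctt
Gm21541, coding bases 70 to 99: agtgatggagggggAcaggactgctgcctt
Ccl21a, coding bases 180 to 209: ggcaatcctgttctCaccccggaagcactc
Gm21541, coding bases 180 to 209: ggcaatcctgttctTaccccggaagcactc
The whole transcript of Gm21541 differed from that of Ccl21a at 6 of 870 bases. In EC3 the authors' counting gave 8721 UMIs to Ccl21a, 74 to Gm21541, 7 to Gm13304 and 0 to Ccl21b, so Ccl21a held 99.1% of the 8802 UMIs of these copies. The 32 EC3 cells with a UMI of a copy all had Ccl21a as well. Whether UMIs were split between the copies cannot be seen in these counts, and Ccl21a is best read as the sum of its copies.

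For Lrg1 and Selp, which both rose under the receptor blockade, the bases before the annotated gene are shown from RefSeq (GRCm38.p6), with capitals for the match of a searched motif. For Lrg1 this is chr17:56122002-56122196 on the minus strand, with TGGGAA, the core of the sequence bound by RBPJ, the DNA-binding partner of Notch. For Selp it is chr1:164115014-164115263 on the plus strand, with TGACCT, the reverse complement of the nuclear receptor half-site AGGTCA that the venous factor Nr2f2 can bind.
Lrg1: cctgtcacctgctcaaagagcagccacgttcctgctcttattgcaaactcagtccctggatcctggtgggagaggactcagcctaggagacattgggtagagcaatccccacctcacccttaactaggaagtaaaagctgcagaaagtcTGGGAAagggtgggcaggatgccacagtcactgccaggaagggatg
Selp: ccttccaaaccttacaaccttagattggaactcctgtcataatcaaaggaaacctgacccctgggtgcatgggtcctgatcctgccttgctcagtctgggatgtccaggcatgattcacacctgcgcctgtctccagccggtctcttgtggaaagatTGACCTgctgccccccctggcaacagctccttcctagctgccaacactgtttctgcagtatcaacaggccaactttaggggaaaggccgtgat
Positions are counted from the RefSeq start, and the matches began at -101 in Lrg1 and -93 in Selp. On either strand, TGGGAA was present in 21.59% of 32851 RefSeq promoter windows and AGGTCA in 14.02%. Of the 7 genes with a window, TGGGAA was found in Lrg1, Mmrn1, Ackr1 and 1 of the Prox1 windows, and AGGTCA in Selp, Ackr1 and Pdpn. The other motifs searched were AACAAT (SOX factors, 9.424% of windows), found in Mmrn1, and TTCNNNGAA (STAT, 7.02%), AGATAA (9.988%, the site of GATA factors) and CCGGAA (ETS, 12.03%), found in none of the 7. Vwf and Lyve1 are named only. With motifs this common, a match says no more than that the letters are there.

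All 9 genes were detected in EC3, and 8 of them had their highest level there. Levels across labels are descriptions without a test, since the authors' labels may have been made from these genes. They are counts per 1000000 UMIs of a label (CPM), followed by the range over samples with at least 20 cells of that label. Lymphatic genes in EC3 reached 125 CPM for Prox1 (12.1 to 143 over 8 samples), 932 for Mmrn1 (90.9 to 1194), 3070 for Ccl21a (304 to 3956), 407 for Lyve1 (24.3 to 661) and 99.6 for Pdpn (6.06 to 133). These transcripts sat in a minority of cells, with a UMI in 16.4% (Pdpn) to 23.3% (Mmrn1) of EC3 cells. Ccl21a was concentrated most, with 138 UMIs per cell that had any.

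The venule genes reached 380 CPM for Vwf in EC3 (228 to 851), 68.3 for Selp (25.5 to 271), 46.8 for Ackr1 (26.4 to 84.9) and 639 for Lrg1 (393 to 2762). A UMI was present in 36.7% of EC3 cells for Vwf, 17.8% for Selp, 9.86% for Ackr1 and 46.3% for Lrg1. In Th1, the thyrocyte label with a median of 12553 UMIs, these genes should be absent, and the shares there were 2.65% for Vwf, 0.513% for Selp, 5.99% for Ackr1 and 2.48% for Lrg1. The Ackr1 share in Th1 was above those of the other venule genes. The Ackr1 gene shares 493 bases with Cadm3 on the same strand, and Cadm3 was above Ackr1 in Th1 (15.3 against 3.54 CPM) and in F (63.0 against 18.5) but below it in EC3 (9.86 against 46.8).

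**Figure D1:**
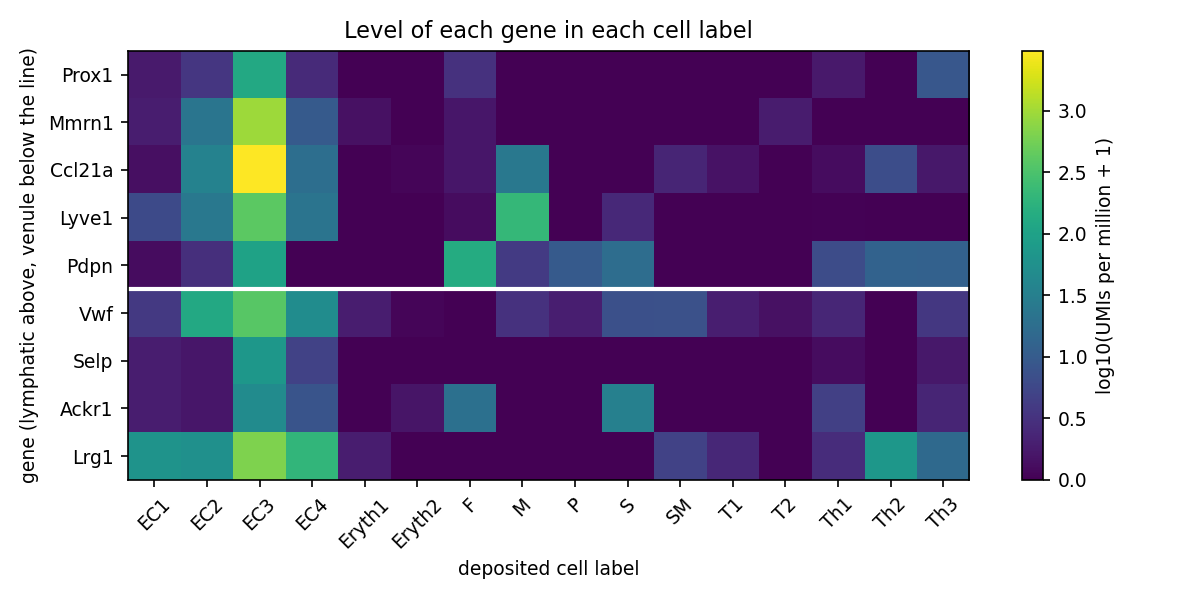
Level of each gene (rows) in each of the authors' 16 labels (columns), as log10 of CPM + 1 by colour, with a line between lymphatic and venule genes. EC3 is the highest column for 8 of 9 genes, and F, the fibroblast label, is the highest for Pdpn.

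In EC1, the largest endothelial label, the lymphatic genes and Vwf, Selp and Ackr1 lay between 0.301 and 5.02 CPM, and only Lrg1 was clearly present (60.9 CPM, a UMI in 17.1% of cells). EC2 held Vwf (127 CPM, 22.7% of cells) and Lrg1 (54.8 CPM, 5.62%). EC4, the shallowest of the 4, held Lrg1 (199 CPM, 10.6%) and Vwf (48.1 CPM, 2.01%). The sample ranges of Lrg1 overlapped among these 3 labels, at 18.2 to 348 CPM in EC1, 2.01 to 206 in EC2 and 0 to 663 in EC4.

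In EC1, EC2 and EC4 the transcripts of Mmrn1, Ccl21a and Lyve1 came from few cells. In EC2, 1 cell carried 32 of 34 Mmrn1 UMIs, 51 of 53 Ccl21a UMIs and 36 of 37 Lyve1 UMIs. All 22 Ccl21a UMIs of EC4 were in 1 cell, and the 50 Lyve1 UMIs of EC1 were in 4 cells. The sample aJ1aJ2 3 held 49 of the 50 Lyve1 UMIs in EC1, 36 of 37 in EC2 and 26 of 27 in EC4. Pdpn had a UMI in 0 of 1046 EC4 cells, which allows a share of up to 0.287% of cells with a UMI when 3 cells are taken as the limit of a count of 0 (0.352% by the exact binomial 95% interval). Each limit covers counting error only and, at the depth of EC4, does not bound the share of cells that express the gene.

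Beyond endothelium, 2 lymphatic genes were found where they are known. Lyve1, which some tissue macrophages carry, was at 209 CPM in M, the macrophage label, with a UMI in 7.14% of cells. Pdpn, a marker of fibroblasts too, was at 139 CPM in F (78.9 to 183 over 9 samples) with a UMI in 43.5% of cells, above EC3 in share and in level. The F range overlapped that of EC3.

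EC3 divided into a set of cells with the lymphatic genes and a set with the venule genes. Cells with UMIs of at least 2 lymphatic members and at most 1 venule member are called the lymphatic class here, and the converse the venule class. The lymphatic class held 79 of 365 cells (21.6%, 95% exact binomial interval 17.5 to 26.2), the venule class 94 (25.8%, 21.3 to 30.6), and 3 cells (0.822%) had at least 2 of each. Those 3 cells were deep, with a median of 22625 UMIs against 3892 in the lymphatic class and 5411 in the venule class, and doublets were not called. The remaining 189 cells (51.8%) had too few members for either class, and 119 of them had none.

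The classes are ranges on a count of genes, not types, and cells lie near the bounds. In the lymphatic class 9 cells had just 2 lymphatic members, and in the venule class 30 had just 2 venule members. Among the remaining cells 10 had 1 lymphatic member and 66 had 1 venule member. Outside EC3 these classes were rare, with 1 lymphatic and 12 venule cells in EC1, 0 and 9 in EC2 and 2 and 16 in EC4. The authors' own map coordinates set most of the lymphatic class apart. To the left of -8 on the first axis lay 85 EC3 cells and 1 other endothelial cell, and 75 of the 85 were of the lymphatic class against 1 of the venule class.

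**Figure D2:**
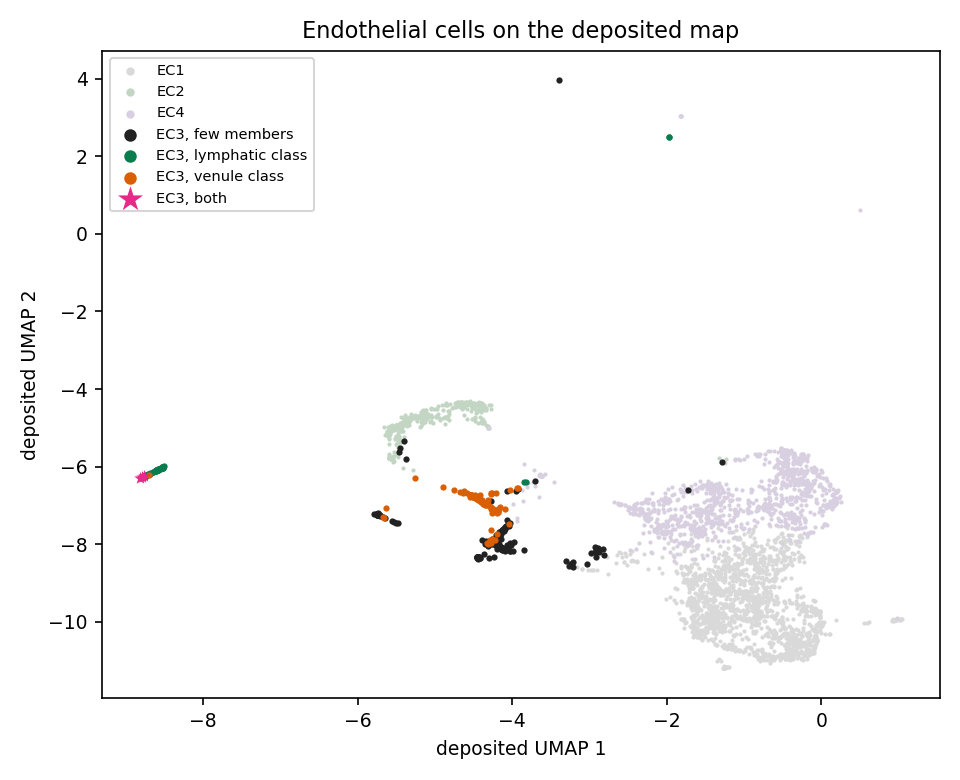
The authors' 2 map coordinates for the 3423 cells of EC1 to EC4, with EC3 cells coloured by class and EC1, EC2 and EC4 cells in pale colours. Of the 79 EC3 cells in the lymphatic class, 75 lie in a group of their own to the left of -8 on the first axis.

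Pairs of genes from the same vessel type were found in the same cells more often than the product of their shares gives. For the 10 lymphatic pairs the ratio of observed to product was 3.66 to 5.17 (median 4.03), and it was above 1 in 9 of 9 samples for every pair. Mmrn1 and Ccl21a were together in 62 cells where the product gives 14.7. Ccl21a and Lyve1 had the highest ratio, 5.17, with 58 cells against 11.2. Deeper cells detect more of everything, so every cell with enough UMIs was also thinned to 1000 UMIs, and the lymphatic ratios were then 3.41 to 6.21.

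The 6 venule pairs had ratios of 1.43 to 4.21. Selp and Ackr1 were together in 27 cells against 6.41 (4.21), and 64 of the 65 cells with Selp also had Vwf. Of 36 cells with Ackr1, 35 had Vwf and 35 had Lrg1. Vwf and Lrg1 were the most loosely tied venule pair, with 89 cells against 62.0.

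Across the vessel types, Vwf, Selp and Ackr1 shared fewer cells with each of the 5 lymphatic genes than the product gives, with ratios of 0 to 0.407 for the 15 pairs. Mmrn1 and Vwf shared 3 cells where the product gives 31.2, and Mmrn1 and Ackr1 shared 0 where it gives 8.38. Lrg1 did not follow the other venule genes. It shared more cells with each lymphatic gene than the product, with ratios of 1.30 (Ccl21a) to 1.57 (Prox1), and 60 cells held both Mmrn1 and Lrg1. After thinning these 5 ratios were 0.997 (Lyve1) to 1.44 (Mmrn1), so for Lyve1 no excess remained at equal depth.

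**Figure D3:**
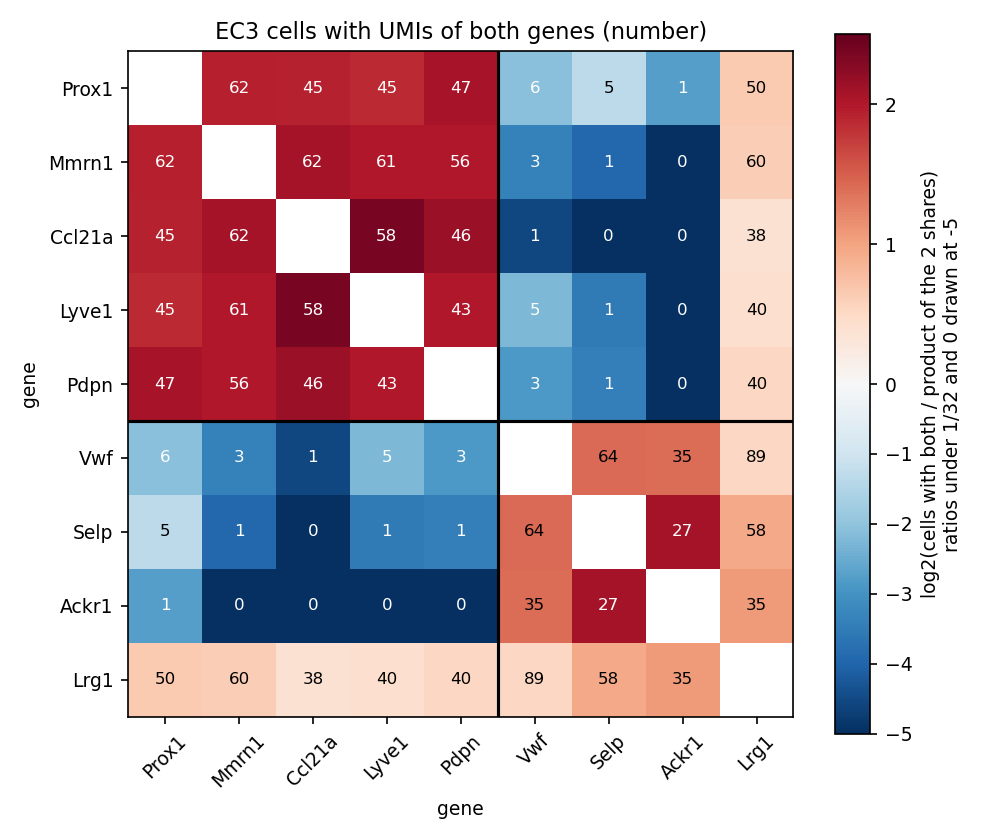
Ratio of the number of EC3 cells with UMIs of both genes to the number given by the product of their shares, for the 36 pairs (colour, log2 scale, with the number of shared cells printed). Pairs with a ratio of 0 or near it are drawn at -5. Lymphatic and venule genes form separate blocks above 1, the pairs across them lie below 1 for Vwf, Selp and Ackr1, and Lrg1 is above 1 with both blocks.

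Other genes of the same vessel types divided between the classes in the same way. Of 14 other lymphatic genes, 13 were higher in the lymphatic class, and their summed level was 6701 CPM there, 741 in the venule class and 798 in the remaining EC3 cells. Reln, a secreted matrix protein, was at 717 CPM in the lymphatic against 1.54 in the venule class, and Flt4, the receptor for the lymphatic growth factor Vegfc, at 631 against 26.3, each higher in 9 of 9 samples. The exception was Sox18 (273 against 358 CPM), a factor that blood endothelium also uses.

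Of 12 other venous and venule genes, 11 were higher in the venule class, with summed levels of 1841 CPM in the lymphatic, 6082 in the venule and 1896 in the remaining cells. The same 12 genes summed to 8669 CPM in EC1, 1433 in EC2 and 7409 in EC4. Their sum therefore does not set the venule class apart from EC1 or EC4. Of 9 pan-endothelial genes, 7 were also higher in the venule than in the lymphatic class. Plvap, the diaphragm protein of fenestrae, was at 2204 CPM in the venule and 198 in the lymphatic class. Vcam1, an adhesion molecule for leukocytes, was at 377 against 69.9, and Ptgs1, a cyclooxygenase, at 327 against 47.1. The exception was Nr2f2, the factor of venous identity, at 514 CPM in the lymphatic and 419 in the venule class and 81.9 in the rest, and lymphatic endothelium is known to need it too.

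Some genes of capillaries were high in the venule class too. The 10 capillary genes summed to 12095 CPM there, 1588 in the lymphatic class and 6164 in the rest, and 7 were higher in the venule than in the lymphatic class. Most of that sum came from Fabp4, a fatty acid carrier, at 8172 CPM in the venule class, Aqp1, a water channel, at 2326 and Cd36 at 950. Kdr was lowest in the venule class, at 212 CPM against 530 in the lymphatic class and 299 in the rest. So was Gpihbp1, at 81.9 against 227 and 225. Rgcc, Esm1 and Aqp7 were higher in the rest than in the venule class. The class therefore carries some capillary as well as venous genes, and its name stands for the member genes that define it. Arterial and mural genes were highest in the remaining EC3 cells. Arterial genes summed to 3447 CPM in them against 594 in the lymphatic and 584 in the venule class, with Fbln5 at 933, Sox17 at 769 and Sema3g at 757 CPM. Mural genes, which mark pericytes and smooth muscle, summed to 4085 CPM against 117 and 1430, with Rgs5 at 2029 and Acta2 at 985 CPM. Platelet genes summed to 27.8 CPM in the venule class, 4.03 in the lymphatic class and 5.21 in the rest. Of the 7, Itga2b had a UMI in 14.9% of venule class cells, 3.80% of lymphatic class cells and 2.12% of the rest, and Ppbp, Gp9, Gp1bb, Treml1 and Gp6 were at 0 in every EC3 cell. Macrophage genes summed to 6.72 CPM in the lymphatic class, 9.27 in the venule class and 133 in the rest. The part of platelet or macrophage RNA in the member levels was not tested. Krt5 stood at 1093 CPM in the lymphatic class, from the single keratin cell.

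The genes most like the lymphatic members over EC3 cells were Reln (Pearson r = 0.907 with the mean of the 5 members), Fgl2 (0.869), Pard6g (0.834), Maf (0.825) and Lcn2 (0.820). These values are over 365 cells and 7288 genes on log counts centred within each sample, and cells share library and depth, so they are descriptions. The members themselves were left out of this ranking. Among the other genes, Reln was the closest to Mmrn1 (0.910), Ccl21a (0.888) and Lyve1 (0.849), Pard6g to Prox1 (0.715) and Adgrg3 to Pdpn (0.674).

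The members were closer to each other in several cases, such as Ccl21a and Lyve1 (0.918), Pdpn and Mmrn1 (0.745) and Vwf and Selp (0.581). Likeness to the venule members was lower, led by Apoe (0.706), Fmo2 (0.676), Aqp1 (0.666), Slco2a1 (0.650) and Plvap (0.631). Among genes that are no members, Aqp1 was the closest to Vwf (0.577) and Ackr1 (0.485), Rasa4 to Selp (0.566) and Apoe to Lrg1 (0.621).

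The antibody groups were compared to ask what ligand and receptor blockade do to these genes. For EC1 to EC4, F and M, UMIs were summed per sample, samples with under 20 cells of the label were left out, and edgeR's quasi-likelihood test was run over all genes that passed its filter on low counts, with Benjamini-Hochberg adjusted p-values. All 9 members passed the filter in EC3. In EC1 only Lrg1 did, in EC2 and EC4 Vwf and Lrg1, in F Pdpn and in M Lyve1, and the other members are untested there. The other 10 labels were not fitted. CPM values by sample of a whole label are scaled with edgeR's normalization factors from here on. Those of a subset of EC3 cells and the sums over a gene list are unscaled. SE is the standard error of a log2 change.

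Lrg1 rose under the receptor blockade in EC1 and EC3, where it passed the filter with any of the 3 groups left aside. In EC2 and EC4 it passed the filter only through the aN1aN2 samples, so its values there are a description. In EC1 it was at 18.6, 20.8 and 24.1 CPM in RW 1 to 3, at 34.2, 35.8 and 34.3 in aJ1aJ2 1, 3 and 4, and at 336, 303 and 350 in aN1aN2 1 to 3. The aN1aN2 samples lay far above all others, and the aJ1aJ2 samples lay just above the RW samples with no overlap. The log2 change of aN1aN2 against RW was 3.94 (SE 0.16, edgeR adjusted p 1.75e-12), or 15.3-fold, where 17.8% of 9369 EC1 genes passed the test. The share of EC1 cells with an Lrg1 UMI was 9.42%, 6.04% and 12.5% in the RW samples and 44.4%, 63.9% and 44.0% in the aN1aN2 samples. After thinning to 1000 UMIs per cell the shares were 1.66% to 3.82% in RW and 18.8% to 27.8% in aN1aN2.

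The rise of Lrg1 in EC1 under the ligand blockade missed the threshold, with a log2 change of 0.70 (SE 0.19, edgeR adjusted p 0.0643), where 1.43% of genes passed. It was called without RW 3 (0.0374) or without aJ1aJ2 1 (0.0480). Against aJ1aJ2 the aN1aN2 level was 3.24 higher on the log2 scale (SE 0.16, edgeR adjusted p 1.19e-11), where 13.5% of genes passed. The comparisons with aN1aN2 share its samples, and those with RW share the controls.

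In EC2 Lrg1 was at 11.8 and 10.4 CPM in RW 1 and 2, at 24.3 and 2.59 in aJ1aJ2 3 and 4, and at 219, 256 and 213 in the aN1aN2 samples. These are 2 and 1 UMIs in RW, 7 and 1 in aJ1aJ2 and 17, 17 and 9 in aN1aN2. RW and aJ1aJ2 overlapped and the aN1aN2 samples lay above both. The left-out RW 3 and aJ1aJ2 1 held 13 and 19 Lrg1 UMIs (143 and 250.4 CPM, unscaled), and the latter overlaps the aN1aN2 samples. The filter asked for 85.7 CPM before scaling in 2 samples, which 3 aN1aN2 samples and 0 other fitted samples reached, so a gene at these RW levels had to be high in aN1aN2 to be tested and the call supports nothing. The fitted log2 change against RW was 4.26 (SE 0.78, edgeR adjusted p 0.00149), where 15.5% of 2508 genes passed, and 4.17 against aJ1aJ2 (0.000526), where 10.5% passed. The call was lost when RW 3 and aJ1aJ2 1, with 15 and 16 EC2 cells, were added (2.19, adjusted p 0.208, against RW and 2.24, 0.209, against aJ1aJ2).

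In EC4 Lrg1 was at 0, 74.1 and 47.1 CPM in RW, 261, 20.1 and 127 in aJ1aJ2, and 278, 592 and 762 in aN1aN2. These are 0, 5 and 5 UMIs in RW, 11, 3 and 20 in aJ1aJ2 and 50, 78 and 80 in aN1aN2. The aN1aN2 samples were the 3 highest, and RW and aJ1aJ2 overlapped. The filter asked for 71.8 CPM before scaling in 3 samples, which 0 RW, 2 aJ1aJ2 and 3 aN1aN2 samples reached, so the same limit holds. The fitted log2 change against RW was 3.86 (SE 0.57, edgeR adjusted p 1.02e-05), where 21.1% of 3101 genes passed, and 2.37 against aJ1aJ2 (0.000269), where 17.2% passed. DESeq2 lost the second call (adjusted p 0.271). Vwf, the other member tested in EC2 and EC4, was not called in either, at 0.71 (0.28) and 0.51 (0.74) against RW. In aJ1aJ2 against RW 0 of the 2 members tested passed in EC2 or in EC4, by edgeR, by DESeq2 or at an unadjusted p under 0.05, where 1.91% and 0.903% of genes passed.

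**Figure D4:**
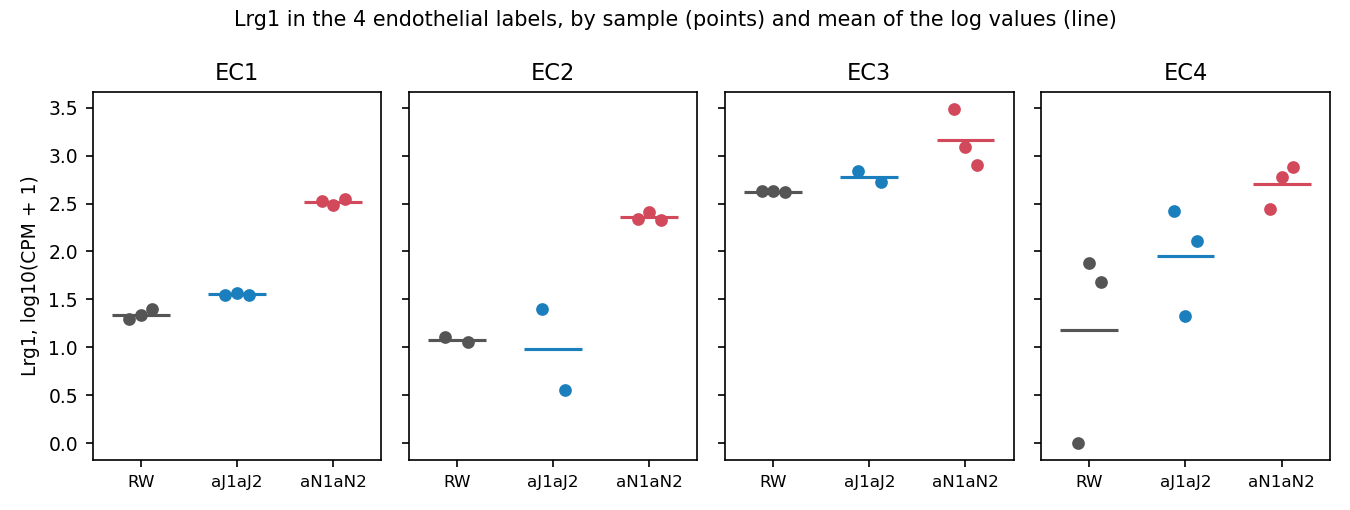
Lrg1 level as log10 of CPM + 1 in each sample (points) of EC1, EC2, EC3 and EC4 by antibody group, with a line at the mean of the log values. In EC1 the aN1aN2 samples are at 303 to 350 CPM and all others at 18.6 to 35.8.

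In EC3, the label that holds all 9 genes, Lrg1, Vwf and Selp rose and Ccl21a fell in aN1aN2 against RW. The 3 rises among 9 members stand beside 3.51% of 6476 genes that passed upward, and the 1 fall beside 2.41% that passed downward (5.91% in all). DESeq2 called 4 members as well. The median log2 change was 1.67 for the 4 venule members and -0.89 for the 5 lymphatic members, beside -0.0038 for all genes tested. EC3 compared 3 RW samples (58, 34 and 42 cells), aJ1aJ2 3 and 4 (71 and 51) and 3 aN1aN2 samples (37, 30 and 25), with aJ1aJ2 1 left out at 17 cells. When that sample was added to the fit, Lrg1 remained called (edgeR adjusted p 0.00817) and Vwf (0.130), Selp (0.129) and Ccl21a (0.162) did not.

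Lrg1 in EC3 was at 421, 422 and 411 CPM in RW, 686 and 524 in aJ1aJ2, and 3071, 1214 and 803 in aN1aN2. The groups did not overlap, and aN1aN2 1 was the highest by far. The log2 change against RW was 2.01 (SE 0.35, edgeR adjusted p 0.00346), and 1.28 without aN1aN2 1 (0.00253).

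Vwf was at 343, 242 and 296.5 CPM in RW, 547 and 482 in aJ1aJ2, and 946, 888 and 384 in aN1aN2. Among these samples RW was below the rest, and aN1aN2 3 was below both aJ1aJ2 samples. The left-out aJ1aJ2 1 had 22 Vwf UMIs in its 17 cells (89.1 CPM, unscaled), below every RW sample. The log2 change of aN1aN2 against RW was 1.32 (SE 0.27, edgeR adjusted p 0.00892), and without aN1aN2 2 the adjusted p was 0.0558.

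Selp was at 35.9, 32.3 and 26.7 CPM in RW, 119 and 161 in aJ1aJ2, and 301, 89.5 and 69.8 in aN1aN2. Among these samples both blockades lay above RW and overlapped each other. The left-out aJ1aJ2 1 had 0 Selp UMIs of 247023, which allows up to 12.1 CPM (3 UMIs, unscaled) and lies below every RW sample. The log2 change of aN1aN2 against RW was 2.18 (SE 0.45, edgeR adjusted p 0.00898). Without aN1aN2 1 it was 1.32 (0.0503).

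Ccl21a was at 2719, 2118 and 1450 CPM in RW, 2582 and 4282 in aJ1aJ2, and 972, 1023 and 321 in aN1aN2. The aN1aN2 samples were the 3 lowest, and RW and aJ1aJ2 overlapped. The left-out aJ1aJ2 1 had 3267 Ccl21a UMIs (13225.5 CPM, unscaled), above every fitted sample. The log2 change of aN1aN2 was -1.44 against RW (SE 0.35, edgeR adjusted p 0.0222) and -2.15 against aJ1aJ2 (SE 0.38, 0.00857). The first call was lost without RW 1 (0.0888) or without aN1aN2 3 (-1.06, 0.0710), and the second without aJ1aJ2 4 (0.203).

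**Figure D5:**
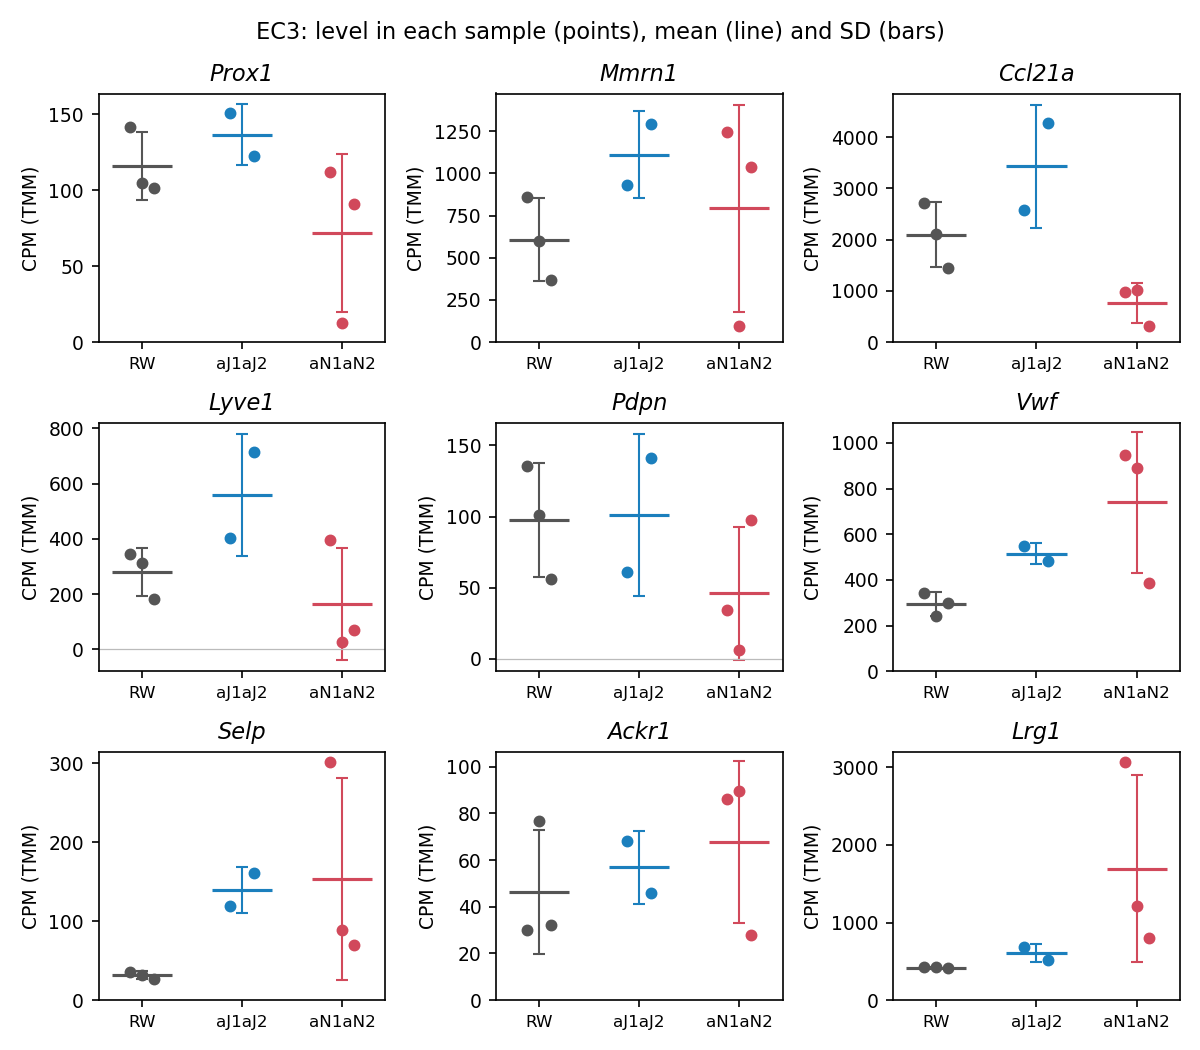
CPM of the 9 genes in EC3 by sample (points, linear axes) and antibody group, with the group mean (line) and SD (bars), and with aJ1aJ2 1 left out for too few cells. The aN1aN2 samples lie above RW for Lrg1, Vwf and Selp and below RW for Ccl21a, and aN1aN2 2 is the lowest sample for Prox1, Mmrn1, Lyve1 and Pdpn.

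The other lymphatic members did not pass the test in aN1aN2 against RW. Prox1 was at 142, 105 and 102 CPM in RW and 112, 12.8 and 90.8 in aN1aN2, a log2 change of -0.77 (edgeR adjusted p 0.33). Lyve1 was at 345, 313 and 182 CPM in RW and 396, 25.6 and 69.8 in aN1aN2 (-0.89, 0.40, and -2.57 with a call at 0.00627 without aN1aN2 1). Pdpn was at 136, 101 and 56.1 CPM in RW and 34.4, 6.39 and 97.8 in aN1aN2 (-1.11, 0.31), with -2.39 without aN1aN2 3 and -0.52 without aN1aN2 2, neither called. Mmrn1 was at 858, 598 and 369 CPM in RW and 1247, 95.9 and 1040 in aN1aN2 (0.36, 0.76). For Prox1, Mmrn1, Lyve1 and Pdpn the lowest sample of all was aN1aN2 2, which held 1 cell of the lymphatic class among 30. Ackr1 overlapped between the groups (0.52, 0.60).

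The mix of cells within EC3 was described by the shares of both classes. The lymphatic class was 22.4%, 26.5% and 21.4% of EC3 cells in RW, 21.1% and 31.4% in aJ1aJ2 3 and 4, and 18.9%, 3.33% and 12.0% in aN1aN2. All aN1aN2 values were below all RW values (means 11.4% and 23.4%), with an exact permutation p of 0.1, the smallest that 3 against 3 samples can give, and 0.45 after adjustment over the 9 share tests. The difference of -12.0 percentage points was -5.49 after thinning to 1000 UMIs (means 9.44% and 14.9%) and -7.98 without aN1aN2 2. Counting cells with at least 1 lymphatic member and no venule member in place of the class gave -4.38, with overlapping groups (exact permutation p 0.3). The venule class was 25.9%, 26.5% and 16.7% in RW, 26.8% and 17.6% in aJ1aJ2 3 and 4, and 32.4%, 43.3% and 36.0% in aN1aN2. In the left-out aJ1aJ2 1 (17 cells) it was 5.88%, with 35.3% in the lymphatic class. The RW and aN1aN2 means of the venule class were 23.0% and 37.3%, and 9.36% and 25.8% after thinning to 1000 UMIs. This class is defined by Vwf, Selp, Ackr1 and Lrg1, of which 3 rose in EC3, so its share does not measure the mix of cells apart from the level of these genes. Cells with at least 1 venule and no lymphatic member were 36.2%, 47.1% and 33.3% in RW and 32.4%, 66.7% and 52.0% in aN1aN2, which overlap. EC3 itself was 9.25% to 15.2% of endothelial cells in RW, 7.73% to 12.6% in aJ1aJ2 and 10.2% to 10.6% in aN1aN2, with exact permutation p-values of 0.6 to 0.8.

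Among EC3 cells with at most 1 lymphatic member, the 3 venule calls were kept against RW. The log2 changes there were 2.55 for Lrg1 (edgeR adjusted p 0.000991), 1.86 for Selp (0.0137) and 0.98 for Vwf (0.0149), and Lrg1 was at 209, 462 and 180 CPM in RW against 2955, 1164 and 584 in aN1aN2. In cells with at least 2 lymphatic members, Lrg1 was at 957, 317 and 1472 CPM in RW and at 1386, 389 and 1474 in aN1aN2, which overlapped. The RW 2 value was 653 CPM without the keratin cell, and the aN1aN2 2 value is 1 UMI in 1 cell. Ccl21a was at 9797, 9239 and 8412 CPM in RW cells with at least 2 other lymphatic members (13, 8 and 10 cells). In aN1aN2 it was at 7117, 62257 and 1541 CPM in 7, 1 and 4 such cells, and no test was made on so few.

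Mural genes in EC3 were lower in both blockades than in RW. Their summed level was 2685 to 4332 CPM in RW, 1056 to 1434 in aJ1aJ2 and 766 to 958 in aN1aN2, and 4 of the 5 tested fell in aN1aN2 against RW, beside 2.41% of all EC3 genes tested (log2 changes of -3.77 for Rgs5, -2.09 for Acta2, -1.94 for Myh11 and -1.82 for Pdgfrb). EC3 cells with UMIs of at least 2 mural genes were 21.4% to 32.4% of cells in RW, 9.80% to 11.8% in aJ1aJ2 and 8.11% to 20.0% in aN1aN2. Without those cells Lrg1 was still called at 1.31 (edgeR adjusted p 0.0150), Selp at 1.35 (0.0424) and Ccl21a at -2.18 (0.000497), Prox1 became called at -1.48 (0.0453), and Vwf was not called at 0.79 (0.0630). Macrophage genes in EC3 summed to 10.2 to 321 CPM in RW and 0 in aN1aN2, and fibroblast genes to 68.8 to 955 and 24.2 to 38.7. The part of these cell types in the member changes was otherwise not tested.

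The ligand blockade changed none of the 9 members in EC3 at the threshold, by edgeR or by DESeq2, where 0.0618% of genes passed. At an unadjusted p under 0.05 there were 2 members and 488 genes. Selp was the nearest, with a log2 change of 2.10 (SE 0.44, edgeR adjusted p 0.111). It was called with the identifier range as a block (2.00, 0.0271), in a fit of RW and aJ1aJ2 samples alone. RW 3 was the only fitted sample of its range there, so the block set RW 1 and 2 against aJ1aJ2 3 and 4. No range effect could be measured between the groups. With aJ1aJ2 1, which had no Selp UMI, the change was 1.59 (0.589). Vwf changed by 0.81 (0.517), Lyve1 by 0.97 (0.70), Mmrn1 by 0.86 (0.77), Ccl21a by 0.71 (0.70) and Lrg1 by 0.54 (0.81). The median over the 5 lymphatic members was 0.71 and over the 4 venule members 0.67, beside -0.02 for all genes. The left-out aJ1aJ2 1 lay above every fitted EC3 sample for all 5 lymphatic members. Its unscaled levels were 13225.5 CPM for Ccl21a, 3060 for Mmrn1, 1405 for Lyve1, 296 for Prox1 and 255 for Pdpn. With 2 aJ1aJ2 samples, the fitted values do not show that the ligand blockade left the genes as they were.

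Between the blockades in EC3, 1 of 9 members was called, Ccl21a (above), where 1.27% of genes passed. Lrg1 was higher in aN1aN2 than in aJ1aJ2 by 1.47 on the log2 scale without a call (edgeR adjusted p 0.0876), and it was called by DESeq2 (0.0198). Lyve1 was at 401 and 715 CPM in aJ1aJ2, above all 3 aN1aN2 samples, and did not pass the test at -1.86 (0.142), though it did without aN1aN2 1 (-3.56, 0.00137).

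The wider lists showed where the members stood among their kind in EC3. Of the 12 other venous and venule genes 10 were tested in aN1aN2 against RW, and 2 rose, Ptgs1 (1.05, edgeR adjusted p 0.0314) and Ephb4, an ephrin receptor of veins (0.89, 0.0431), with a list median of 0.49. Of the 14 other lymphatic genes 13 were tested and 0 passed by edgeR or DESeq2, with 3 at an unadjusted p under 0.05 and a median of -0.25. Of 10 capillary genes tested 3 rose and 2 fell, beside 3.51% and 2.41% of all genes tested, among them Cd36 (3.11), a fatty acid transporter, Gpihbp1 (2.12), which holds lipoprotein lipase on capillaries, and the tip cell gene Esm1 (-3.57). Of 9 pan-endothelial genes tested 3 rose (Pecam1 by 1.19, Esam by 1.13 and Tek by 0.79 on the log2 scale). Of 8 arterial genes tested 2 fell, the Notch target Hey1 (-1.51) and Efnb2 (-0.94).

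In EC1, where Lrg1 rose 15.3-fold, the other venous genes divided. Among 10 tested, 2 rose and 3 fell in aN1aN2 against RW, beside 8.83% of all EC1 genes that rose and 8.93% that fell, with Nr2f2 at 1.51, the apelin receptor Aplnr at -2.09, endomucin (Emcn) at -1.57 and Icam2 at -0.60, with a median of 0.14 beside -0.01 for all genes. Of 5 other lymphatic genes tested there, Itga9 (-1.44) and Stab1 (-0.69) fell. In EC2, 6 of the 12 genes of the venous list were tested, and 0 rose and 2 fell, Emcn (-0.99) and Aplnr (-2.65), beside 8.85% of all EC2 genes that rose and 6.62% that fell. In EC4, 7 were tested, and 0 rose and the same 2 fell (-1.24 and -2.53), beside 11.2% that rose and 9.93% that fell. These labels come from the same animals as EC1. Of 16 genes that act with the members in leukocyte traffic, 5 were tested in EC1, where 17.8% of all genes passed, and Ackr3 (0.65), a scavenging receptor, and S1pr1 (0.90), the receptor for sphingosine phosphate, rose while Eng (-1.07) fell.

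Outside endothelium, Pdpn in F and Lyve1 in M were the members tested, and neither was called. Pdpn in F was at 192, 163 and 200 CPM in RW and 88.3, 106 and 199 in aN1aN2, and aN1aN2 3 overlapped RW (log2 change -0.57, edgeR adjusted p 0.148, where 19.8% of 4840 genes passed, and 0 calls by DESeq2). It was called without aN1aN2 3 (-0.92, 0.0270). It did not pass in aJ1aJ2 against RW, where 0.579% of genes passed, or in aN1aN2 against aJ1aJ2, where 16% did. Lyve1 in M was at 98.2, 134 and 0 CPM in RW and 421, 138 and 593 in aJ1aJ2, a log2 change of 2.11 (unadjusted p 0.0195, edgeR adjusted p 1.0), where 0 of 2097 genes passed and 77 had an unadjusted p under 0.05. The filter asked for 61.6 CPM before scaling in 3 samples, which 2 RW and 3 aJ1aJ2 samples reached. Without aJ1aJ2 samples Lyve1 would not have been tested in M, so this change is a description. aN1aN2 had 9, 3 and 10 M cells and was not compared.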

How the data were processed

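Single-cell 3' RNA sequencing counts were analysed from 9 pools of mouse thyroids. The authors deposited raw counts of UMIs per gene and cell, and a table of cell labels and map coordinates. Cell Ranger and GRCm38 are named in the submitters' processing notes, and versions are not given in the sources used here. No source used here says how the cell labels were assigned. Cells had at least 500 UMIs, and symbols were found for 52403 of 52636 Ensembl identifiers.

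The 9 genes and the gene lists were chosen with earlier results of these data known. Groups came from sample titles and treatment labels. The titles of RW 3 and aJ1aJ2 1 carry no replicate number, and the numbers given to them are names only. UMIs were summed per sample in EC1 to EC4, F and M and tested with edgeR 4.0.16 (R 4.3.3, TMM, filterByExpr, quasi-likelihood) where at least 2 samples per group had 20 cells, with Benjamini-Hochberg adjusted p under 0.05 as the threshold. All usable samples entered 1 fit per label with a shared spread. DESeq2 1.42.0 was an alternative. Pools are the replicates, and p-values measure the spread between pools. For shares an exact permutation test was used, two-sided (scipy 1.17.1), and 95% intervals are exact binomial and cover counting error only. Thinning to 1000 UMIs used seed 1. The fits were tested on simulated data with 200 changed genes. The named genes of other lists were up to 4 per list, those called with the largest changes or those at high levels, and the most alike genes were ranked by Pearson r among genes with a UMI in at least 10% of EC3 cells. Alternatives were the filter, size factors, the number of cells, blocks by replicate number or identifier range, a depth bound and leaving out samples. Leaving out the keratin cell, lymphatic or mural cells and the test between labels were added after seeing the data.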

Additional observations from a re-analysis of the deposited data

Results flagged for a closer look

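The rise of Lrg1 under the receptor blockade differed between endothelial labels. In a test of the difference itself, with both labels of each sample in 1 fit, the log2 change of aN1aN2 against RW was lower in EC3 than in EC1 by 2.11 (-2.11, SE 0.37, edgeR adjusted p 0.00503 over 6963 genes, 133 of them called). The RW level of Lrg1 was 411 to 422 CPM in EC3 and 18.6 to 24.1 in EC1, and the aN1aN2 level was 803 to 3071 in EC3 and 303 to 350 in EC1, so the label with the higher control level had the smaller fold. Against EC2 (-2.35, adjusted p 0.197) and EC4 (-2.08, 0.147) the difference did not pass. The RW samples of those labels held 2 and 1 Lrg1 UMIs in EC2 and 0, 5 and 5 in EC4. These differences rest on those counts and support nothing. Both labels come from the same pools, and this test was chosen after seeing the data. For Vwf the differences were 0.72, 0.73 and 0.74 against EC1, EC2 and EC4, with adjusted p of 0.80, 0.65 and 0.76.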

How the results depend on the processing

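Under the alternatives, Lrg1 kept its call and direction in aN1aN2 against RW in EC1, EC3 and EC4 under every setting run (in EC4 it was tested only through the aN1aN2 samples), while the calls of Vwf, Selp and Ccl21a in EC3 rested on single samples or on the cells included. Counting 17 EC3 cells as enough for aJ1aJ2 1 (at least 10 cells per sample) left 1 member called there in aN1aN2 against RW and 234 genes. The same setting gave 0 members in EC2 for both comparisons with aN1aN2, 14 genes in EC2 and 2 in EC3 for aJ1aJ2 against RW, and log2 changes there of -0.046 for Lrg1 in EC2 and -0.16 for Ackr1 and 0.59 for Pdpn in EC3. The cause was not tested. In EC4, at a median of 1045.5 UMIs per cell, RW samples held 0 to 5 Lrg1 UMIs, and a fold there rests on those counts.

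DESeq2 called 81, 19 and 11 genes in EC1, EC2 and EC4 for aJ1aJ2 against RW, 252 and 410 in EC2 and EC4 for aN1aN2 against RW, and 167 and 318 for aN1aN2 against aJ1aJ2, with 2 members in EC3 and 0 in EC4 for the last, and Pdpn at 0.027 in EC3 for aJ1aJ2. With no filter, which tests genes at near 0, genes called for aJ1aJ2 against RW were 356 in EC1, 150 in EC2, 104 in EC3, 105 in F and 36 in M, with 1, 3, 3 and 2 members in EC1, EC2, EC3 and EC4 and 2 in M. It gave 594 genes in EC3 for aN1aN2 against RW, and for aN1aN2 against aJ1aJ2 268 genes in EC3 and 2, 4, 3 and 3 members in EC1, EC2, EC3 and EC4.

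With the identifier range as a block, aJ1aJ2 against RW gave 10 genes and 1 member in EC3 and 54 genes in F. In EC3 RW 3 was the only sample of its range, so the block there only set RW 3 aside. The replicate block kept only RW 1 and 2 and aN1aN2 1 and 2, so RW 3 and aN1aN2 3 were left out as well. In that fit, Mmrn1 in EC3 turned to -0.80 for aN1aN2 against RW and Pdpn in EC3 became called (-2.64, edgeR adjusted p 0.000772). Pdpn in F became the 1 member called (-0.85, edgeR adjusted p 0.0411). These changes cannot be told apart from leaving out RW 3 and aN1aN2 3. Same-numbered samples did not deviate together (correlations of -0.0301 in EC3 to 0.0357 in F), so they share only a number.

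Without the keratin cell, EC3 gave 10 genes for aJ1aJ2 against RW and 150 for aN1aN2 against aJ1aJ2. With at most 1 lymphatic member per EC3 cell, the counts were 7 and 144, with 0 members called in the latter and Ackr1 at -0.050 and Selp at -0.18. With at most 1 mural gene, EC3 gave 0 genes for aJ1aJ2 against RW, with Ackr1 at -0.43, Prox1 at -0.40 and Lrg1 at -0.12, then 181 genes for aN1aN2 against RW, with Ackr1 at -1.01 and Mmrn1 at -0.30, and 2 members for aN1aN2 against aJ1aJ2, with Ackr1 at -0.58 and Selp at -0.034. With cells of at least 1000 UMIs, EC4 gave 6 genes for aJ1aJ2 against RW, and Vwf there turned to -0.43 in aJ1aJ2 and -0.44 in aN1aN2. With EC1 to EC4 summed, 4 members were called in aN1aN2 against aJ1aJ2, beside 13.5% of 10661 genes. Against RW, where 19.7% were called, Lrg1 (2.505, edgeR adjusted p 7.63e-06), Selp (2.08, 0.0225) and Vwf (1.31, 0.00496) were called and Ccl21a was not (-1.60, 0.121). The EC3 share of aN1aN2 minus RW turned to 0.211 percentage points with cells of at least 1000 UMIs and to 0.441 as a share of all cells but Eryth1 and Eryth2, and the venule class of aJ1aJ2 minus RW to 4.61 after thinning.

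Leaving out each sample in turn gave ranges for aJ1aJ2 against RW of 38 to 386 genes and 0 to 1 members in EC1, 13 to 55 and 0 to 1 in EC2, 0 to 11 genes in EC3, 2 to 65 in EC4 and 4 to 44 in F. For aN1aN2 against RW it gave 256 to 295 genes in EC2, 210 to 360 in EC3 and 0 to 1 members in F. For aN1aN2 against aJ1aJ2 it gave 1 to 3 members in EC2, 19 to 89 genes and 0 to 2 members in EC3, 350 to 552 genes in EC4 and 465 to 644 in F. Uncalled members that changed sign for aJ1aJ2 against RW were Vwf (-0.18 to 0.31) and Lrg1 (-1.79 to 1.04) in EC2, Ackr1 (-0.031 to 0.92) and Pdpn (-0.69 to 0.52) in EC3 and Vwf in EC4 (-0.024 to 3.69). For aN1aN2 against RW they were Mmrn1 in EC3 (-0.11 to 0.91) and Vwf in EC4 (-0.43 to 3.53). For aN1aN2 against aJ1aJ2 they were Ackr1 (-0.10 to 0.59), Mmrn1 (-0.98 to 0.052) and Selp (-0.79 to 0.44) in EC3 and Vwf in EC4 (-1.11 to 0.29). The EC3 share moved between -2.90 and 0.0613 percentage points (aJ1aJ2 minus RW), -2.75 and 0.220 (aN1aN2 minus RW) and -1.08 and 1.35 (aN1aN2 minus aJ1aJ2), and the venule class between -3.96 and 0.939 (aJ1aJ2 minus RW).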
